A study of Mus musculus with 7 samples.

Results

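Secreted factors that astrocytes use to organize synapses were examined in endpoint tumors of a mouse glioma model, namely the thrombospondin genes Thbs1, Thbs2, Thbs3 and Thbs4, the matricellular genes Sparc and Sparcl1, and Chrdl1. These 7 genes were chosen by symbol and function, with earlier results of these data known. All 7 were among the 19257 named genes of the expression table, and all 7 passed the filter on low values that left 14782 genes for testing. Gliomas were induced in utero by electroporating progenitor cells beside the lateral ventricles with Cas9 and guides against tumor suppressor genes, among them Trp53 and Nf1. The question was what added Gpc6, a glypican gene linked to synapse formation, does to the transcriptome of the tumor brain. The 3xCR group (3 libraries, labelled replicates 2, 3 and 4, genotype control) carried these edits without added Gpc6. The GPC6 group (4 libraries, replicates 1 to 4) carried the same edits and overexpressed GPC6. In this model a piggyBac transposon delivers the GFP reporter and the added GPC6, so that the transgene enters the electroporated cells and not the rest of the host. Tumors arise separately in each animal of an immunocompetent host, animals of both sexes on CD-1 and C57BL/6 backgrounds were used, and the strain, sex and age at endpoint behind each library are not given in the sources used here. Tissue was collected as bulk tumor from endpoint brains, 1 library per brain, so host and tumor RNA were read together. Values given tumor by tumor follow the replicate number, from 2 to 4 for 3xCR and from 1 to 4 for GPC6.

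Thrombospondins are large secreted glycoproteins that bind calcium, and immature astrocytes release them to promote the formation of excitatory synapses through the calcium channel subunit encoded by Cacna2d1. Thbs1 and Thbs2 encode proteins that assemble as trimers, whereas the products of Thbs3 and Thbs4 assemble as pentamers. Sparcl1 encodes hevin, which astrocytes secrete to bridge presynaptic neurexin and postsynaptic neuroligin. Sparc encodes its close relative, which binds collagen and opposes the synaptic action of hevin. Chrdl1 encodes a secreted antagonist of bone morphogenetic proteins (BMPs) that astrocytes use to mature synapses by recruiting AMPA receptors that contain the subunit encoded by Gria2. Blood vessels, fibroblasts, platelets and macrophages also make thrombospondins and SPARC, so these transcripts do not mark astrocytes on their own.

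The libraries held 7197692 to 18879762 reads on genes. Gpc6 itself spanned 126 to 226 normalized counts among 3xCR tumors and 263 to 5084 among GPC6 tumors. The groups did not overlap, although GPC6 replicate 2, at 263, lay close to the highest 3xCR library (p = 0.057 by an exact, two-sided permutation, and 3 tumors against 4 can reach no smaller value). A pair of libraries stood apart in their cell type markers. 3xCR replicate 4 held 53171 summed normalized counts of 12 fibroblast markers against 1199 to 6842 in the other libraries. Most of that sum came from Col3a1 (19289), Col1a2 (16800) and Col1a1 (9756), and that tumor was highest for 8 of the 12 markers. GPC6 replicate 1 held 88120 summed normalized counts of 14 neuron markers against 5689 to 50254 elsewhere. It held 12690 of 8 choroid plexus markers (11813 from Ttr alone) against 64.8 to 3790. It was also the lowest library for all 12 proliferation markers, with a sum of 1436 against 7694 to 18446. The differences of the members, and of the other genes named for passing an unadjusted threshold, are therefore also given without each of these libraries. In bulk tissue, fewer cells of a type and less RNA per cell cannot be told apart. Y-linked transcripts were not balanced between the groups. The sum of 4 Y-linked genes was 1218 and 1675 normalized counts in GPC6 replicates 1 and 2 and at most 1.10 in every other library, all 3xCR tumors included. The part of sex in the differences between groups was not tested.

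The factors spanned a wide range of abundance. Per kilobase of exon, Sparcl1 (mean of 7 libraries, 3850 normalized counts per kb) and Sparc (3419) were far above the other members. Sparc led in 3xCR by group mean (3782 against 2432) and Sparcl1 in GPC6 (4914 against 3147). Within 3xCR the gap was widest in replicate 4 (Sparc 5436 against 1228). Sparc was also above in replicate 3 (3381 against 2718) but below in replicate 2 (2529 against 3350.5). Within GPC6 the gap was widest in replicate 1 (Sparcl1 10080 against 4848), and Sparcl1 was below in replicate 4 (2259 against 2376). Sparc lay at the 99.7 percentile of all genes tested by level and Sparcl1 at the 99.5 percentile. Thbs2 followed at 71.8, Thbs3 at 37.4, Chrdl1 at 20.3, Thbs4 at 16.0 and Thbs1 at 12.9 normalized counts per kb. Sparc exceeded Thbs2 in 7 of 7 libraries, and the lowest Sparc value, 2376 per kb, was above the highest Thbs2 value, 225. No other pair of neighbours in this order was separated. Sparcl1 exceeded Sparc in 4 of 7 libraries, Thbs2 exceeded Thbs3 in 4, Thbs3 exceeded Chrdl1 in 5, Chrdl1 exceeded Thbs4 in 5 and Thbs4 exceeded Thbs1 in 4.

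None of the 7 factors differed between GPC6 and 3xCR tumors beyond the spread between tumors. Sparcl1, Thbs4 and Thbs3 had the higher fitted mean in GPC6 tumors and Sparc, Chrdl1, Thbs1 and Thbs2 the lower, with a median log2 fold change of -0.24 against -0.019 over all genes tested. The median of the 7 was 0.22 without 3xCR replicate 4 and -0.15 without GPC6 replicate 1. By limma on log2(normalized count + 1) with Benjamini-Hochberg adjustment, 0 of 7 passed an adjusted p of 0.05, where 0% of all genes tested did. At an unadjusted p under 0.05, 0 of 7 passed, against 2.74% of all genes higher in GPC6 and 1.92% lower. In 0 of 7 did the groups fail to overlap, against 2.80% of all genes higher in GPC6 and 3.52% lower. Across all genes, limma called 0 at the adjusted threshold and 689 at the unadjusted one, edgeR called 0 and 991, and DESeq2 called 4 and 1853, none of the members by any of these tools. The 95% intervals were wide: the narrowest, that of Sparc, ran from -1.15 to 0.64 on the log2 scale, and the widest, that of Thbs4, from -1.84 to 2.25.

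**Figure D1:**
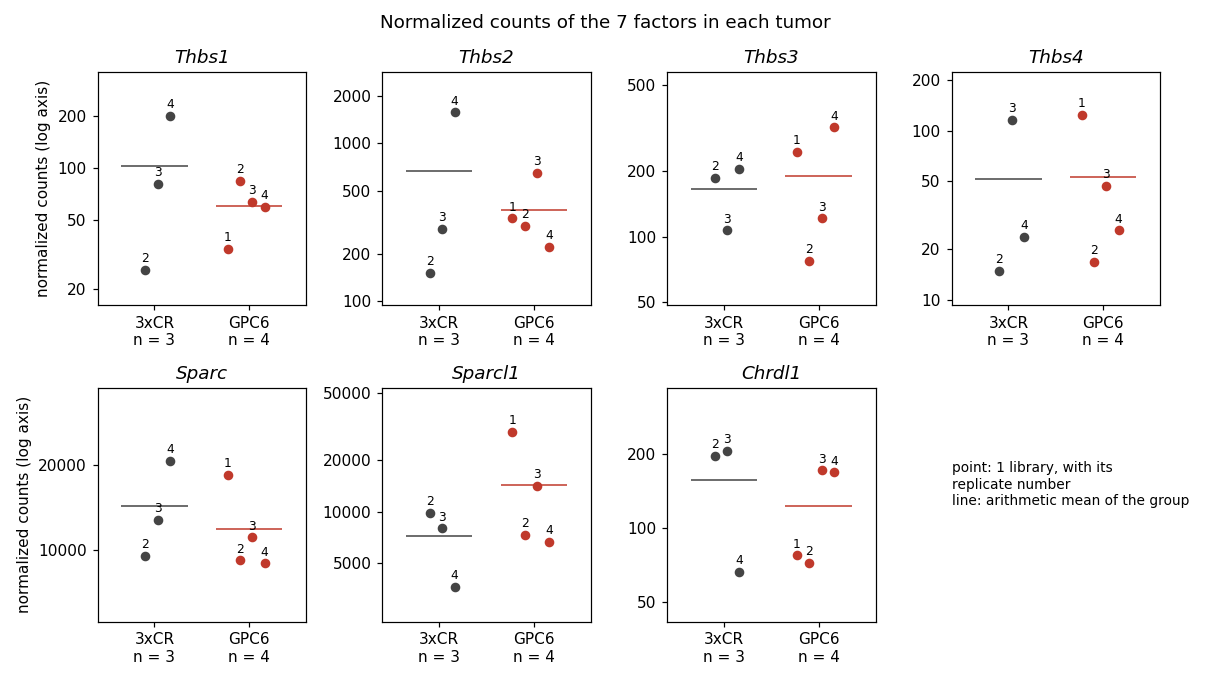
Normalized counts (log axis, a separate scale for each gene) of the 7 factors in 3 3xCR and 4 GPC6 libraries; each point is 1 tumor, numbered by its replicate, and bars are group means. The groups overlap for every factor, with 3xCR replicate 4 highest for Thbs1 (199), Thbs2 (1577) and Sparc (20593) and lowest for Sparcl1 (3606).

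**Figure D2:**
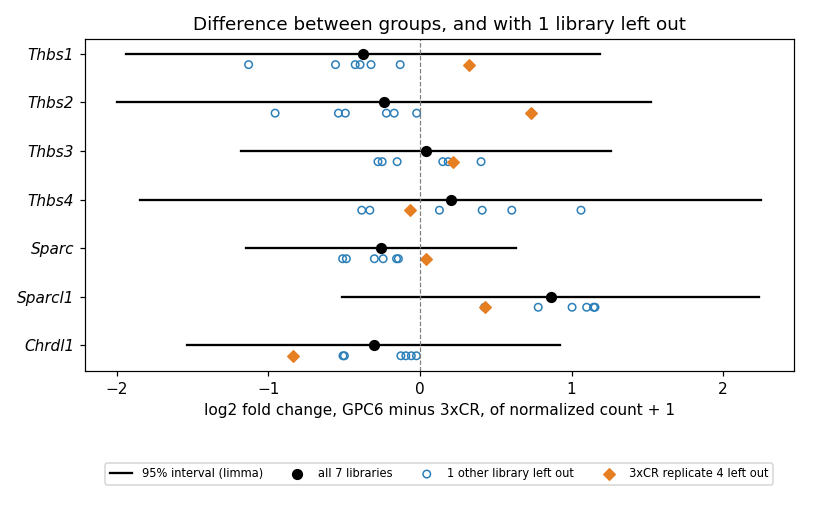
Log2 fold change of GPC6 over 3xCR (x axis, normalized count + 1) for each factor, with black points and lines for the fit of 7 libraries and its 95% interval, and open circles and diamonds for fits with 1 library left out. All intervals include 0, and Thbs1, Thbs2, Sparc and Thbs4 move to the other side of 0, at 0.32, 0.73, 0.042 and -0.068, when 3xCR replicate 4 is left out.

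Thbs1, the trimeric thrombospondin that also activates latent TGF-beta, had 25.8, 80.9 and 199 normalized counts across the 3xCR tumors, against 34.0, 84.0, 63.9 and 59.7 across the GPC6 tumors. The highest and the lowest tumor were both 3xCR, and the 4 GPC6 tumors lay between them. Means were 102 ± 88.4 (SD, n = 3) in 3xCR and 60.4 ± 20.5 (SD, n = 4) in GPC6, with a log2 fold change of -0.38 (SE 0.68; limma adjusted p = 0.876). Without 3xCR replicate 4 the log2 fold change was 0.32, and without GPC6 replicate 1 it was -0.13. Thbs1 rested on 22 to 144 reads per library. The gene lies at chr2:118111876-118127133 (GRCm38, plus strand) and overlaps the lincRNA gene Gm29233 on the opposite strand. Whether reads were counted by strand is not stated, so reads of overlapping genes cannot be told apart here.

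Thbs2, the other trimeric member, had 151, 287 and 1577 normalized counts across the 3xCR tumors, against 335, 301, 648 and 221 across the GPC6 tumors. A single tumor, 3xCR replicate 4, was above all others, while 3xCR replicate 2 was below all GPC6 tumors and 3xCR replicate 3 below 3 of the 4. Means were 672 ± 787 (SD, n = 3) in 3xCR and 377 ± 187 (SD, n = 4) in GPC6, and the log2 fold change was -0.24 (SE 0.76; limma adjusted p = 0.935). Leaving out 3xCR replicate 4 turned it to 0.73, whereas leaving out GPC6 replicate 1 gave -0.22. Over the 7 libraries Thbs2 had the widest range of the factors, 10.5-fold, which rests on 3xCR replicate 4. Within GPC6 its range was 2.93-fold, below the 7.36-fold of Thbs4, the 4.46-fold of Sparcl1 and the 4.15-fold of Thbs3. The gene lies at chr17:14665500-14694235 on the minus strand.

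Thbs1 and Thbs2 were the closest pair of members by their profile over the 7 libraries, measured as the root mean square difference of their centred log2 values, 0.63. The farthest pair was Thbs1 and Sparcl1 at 1.64. Thbs2 carried 5.85, 3.55 and 7.93 normalized counts per count of Thbs1 across the 3xCR tumors, against 9.86, 3.59, 10.2 and 3.71 across the GPC6 tumors. On the log2 scale the ratio of Thbs1 to Thbs2 was -2.43 ± 0.59 (SD, n = 3) in 3xCR and -2.57 ± 0.83 (SD, n = 4) in GPC6. The groups overlapped, and the distance between the means was smaller than either SD. The difference of the log2 ratios, -0.14, was -0.41 without 3xCR replicate 4 and turned to 0.091 without GPC6 replicate 1.

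The proteins of Thbs1 and Thbs2 share 63.5% of 1137 aligned residues, and their transcripts share no run of identical bases longer than 26. They differ at the site for which Thbs1 is known as an activator of latent TGF-beta, a lysine, arginine, phenylalanine, lysine motif that was found in Thbs1, from residue 431, and in none of the other 6 proteins. The coding sequence around it is shown because it separates the members with the closest profiles in these tumors, with the 4 codons of the site, and the 4 aligned codons of Thbs2, in capitals (GRCm38, GENCODE transcripts, coding strand). The Thbs1 stretch spans exons 8 and 9 of 22 at chr2:118117627-118118190 (plus strand, an intron between), and the Thbs2 stretch spans exons 8 and 9 of 22 at chr17:14681387-14681695 (minus strand, likewise).
Thbs1: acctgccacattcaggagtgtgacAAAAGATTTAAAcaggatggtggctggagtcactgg
Thbs2: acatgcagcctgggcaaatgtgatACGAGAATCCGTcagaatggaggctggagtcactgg
The aligned codons of Thbs2 read threonine, arginine, isoleucine, arginine, and 20 of the 60 bases differ. The expression values above count whole genes and say nothing of the activity of this site.

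Thbs3, a pentameric member, had 187, 107 and 206 normalized counts across the 3xCR tumors, against 246, 77.1, 122 and 320 across the GPC6 tumors. Both the highest and the lowest values came from GPC6 tumors, and the 3xCR tumors lay inside that range. Means were 167 ± 52.5 (SD, n = 3) and 191 ± 112 (SD, n = 4), with a log2 fold change of 0.041 (SE 0.53; limma adjusted p = 0.986). Its direction is not settled by these data: it was -0.25 without 3xCR replicate 3, -0.15 without GPC6 replicate 1 and -0.28 without GPC6 replicate 4, and 0.22 without 3xCR replicate 4. Thbs3 lies at chr3:89215180-89226837 (plus strand) inside the span of Mtx1, a mitochondrial import gene on the opposite strand with 414 to 772 normalized counts per library, and reads from the pair may be mixed.

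Thbs4, the other pentameric member, had 14.8, 116 and 23.5 normalized counts across the 3xCR tumors, against 124, 16.8, 47.0 and 25.7 across the GPC6 tumors. In each group 1 tumor was high, 3xCR replicate 3 and GPC6 replicate 1, and the rest were at 47.0 or lower. Means were 51.5 ± 56.2 (SD, n = 3) and 53.3 ± 48.6 (SD, n = 4), and the log2 fold change was 0.20 (SE 0.89; limma adjusted p = 0.955). The value was 1.06 without 3xCR replicate 3 and -0.33 without GPC6 replicate 1, and it also turned negative without 3xCR replicate 2, at -0.38, and without 3xCR replicate 4, at -0.068. The gene lies at chr13:92751590-92794818 on the minus strand. The proteins of Thbs3 and Thbs4 share 63.4% of 906 aligned residues, close to the identity within the trimeric pair, yet their profiles over the tumors differed in part: Thbs3 was high in 3xCR replicates 2 and 4, where Thbs4 was low. Both were high in GPC6 replicate 1 (246 and 124) and low in GPC6 replicate 2 (77.1 and 16.8).

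The mix of thrombospondin transcripts, taken as each gene's share of the summed per-kb level of the 4 genes, differed from tumor to tumor within each group. Thbs2 made up 31.2%, 36.7% and 73.2% across the 3xCR tumors, against 33.7%, 55.2%, 64.9% and 27.3% across the GPC6 tumors. Thbs2 was the most abundant of the 4 in 3xCR replicates 3 and 4 and in GPC6 replicates 2 and 3, and Thbs3 in the other tumors. Thbs4 reached 31.6% in 3xCR replicate 3 and 26.5% in GPC6 replicate 1 and was lower in each of the others, down to 2.32% in 3xCR replicate 4. Thbs1 made up 3.94% to 17.7% and led in no tumor.

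Sparc, the collagen-binding antagonist of hevin, had 9579, 12806 and 20593 normalized counts across the 3xCR tumors, against 18365, 9229, 11094 and 9000 across the GPC6 tumors. Each group held 1 high tumor, 3xCR replicate 4 and GPC6 replicate 1, and the others lay between 9000 and 12806. Means were 14326 ± 5662 (SD, n = 3) and 11922 ± 4397 (SD, n = 4), with a log2 fold change of -0.26 (SE 0.39; limma adjusted p = 0.853). The change was 0.042 without 3xCR replicate 4 and -0.48 without GPC6 replicate 1. Sparc was the steadiest member, with a 2.29-fold range over the 7 libraries. It lies at chr11:55394500-55423183 on the minus strand.

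Sparcl1, which encodes hevin, had 9840, 7982 and 3606 normalized counts across the 3xCR tumors, against 29605, 7304, 14189 and 6635 across the GPC6 tumors. The highest tumors were GPC6 replicates 1 and 3, while GPC6 replicates 2 and 4 fell within the 3xCR range. Means were 7143 ± 3201 (SD, n = 3) in 3xCR and 14433 ± 10675 (SD, n = 4) in GPC6. The log2 fold change of 0.86 (SE 0.59, 95% interval -0.51 to 2.24; limma adjusted p = 0.731) was the largest among the 7 factors and did not pass the test. It was positive in each of the 20 alternative settings, from 0.43 to 1.15, and none reached an adjusted p of 0.05. It was 0.43 without GPC6 replicate 1 and also 0.43 without 3xCR replicate 4. Sparcl1 lies at chr5:104079111-104113733 (minus strand), where the antisense gene Gm26703 overlaps it.

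The products of Sparcl1 and Sparc share 55.4% of 271 aligned residues, which is 89.7% of Sparc and 41.7% of the longer hevin. Their longest run of identical residues, 11 in all, is shown because the genes are the antagonistic pair of the set and because it shows how far reads can tell them apart. Capitals mark the 6 bases that differ without changing a residue (GRCm38, GENCODE transcripts, coding strand). The Sparc stretch lies in exon 7 of 10 at chr11:55399258-55399290 (minus strand), and the Sparcl1 stretch lies in exon 8 of 11 at chr5:104087091-104087123 (minus strand).
Sparc: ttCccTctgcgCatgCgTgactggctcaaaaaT
Sparcl1: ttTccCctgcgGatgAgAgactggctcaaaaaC
The longest run of identical bases that the genes share is 14, and the length of the reads is not given in the sources used here.

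The ratio of Sparcl1 to Sparc was 1.03, 0.623 and 0.175 across the 3xCR tumors, against 1.61, 0.791, 1.28 and 0.737 across the GPC6 tumors. The normalized count of Sparcl1, not corrected for gene length, was above that of Sparc in 3xCR replicate 2 and in GPC6 replicates 1 and 3, and 3xCR replicate 4 had by far the lowest ratio. On the log2 scale the ratio was -1.05 ± 1.32 (SD, n = 3) in 3xCR and 0.067 ± 0.54 (SD, n = 4) in GPC6, a difference of 1.12 that was smaller than the SD within 3xCR. The groups overlapped, and the difference was 0.39 without 3xCR replicate 4 and 0.91 without GPC6 replicate 1. Per kilobase, the ratio is shifted by the same factor in every library, and Sparcl1 was then also above Sparc in GPC6 replicate 2.

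**Figure D3:**
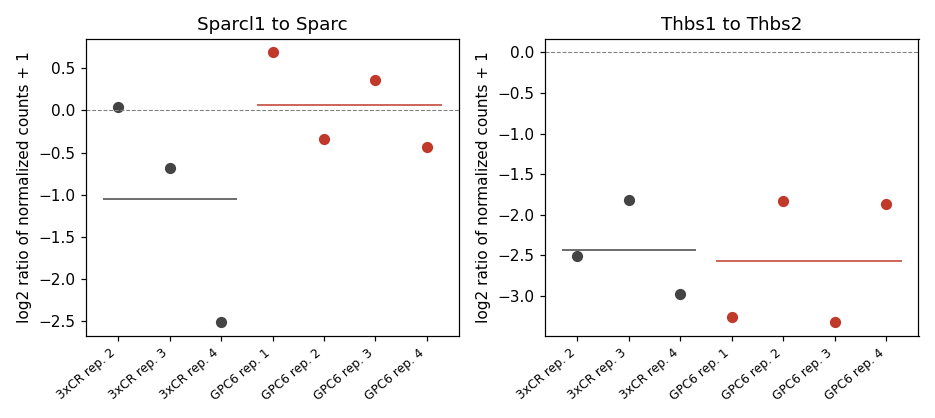
Log2 ratios of normalized counts + 1 (y axis) in each of the 7 libraries (x axis) for Sparcl1 over Sparc and for Thbs1 over Thbs2; each point is 1 tumor. For Sparcl1 over Sparc, 3xCR replicate 4 is at -2.51 and the other 6 tumors lie between -0.68 and 0.69, whereas Thbs1 over Thbs2 lies between -3.32 and -1.82 with both groups spread across that range.

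Chrdl1, the secreted BMP antagonist, had 198, 207 and 66.3 normalized counts across the 3xCR tumors, against 77.3, 72.1, 172 and 169 across the GPC6 tumors. The tumors fell into a high set, at 169 to 207, and a low set, at 66.3 to 77.3, and each set held tumors of both groups. Means were 157 ± 78.9 (SD, n = 3) and 123 ± 55.3 (SD, n = 4), and the log2 fold change was -0.31 (SE 0.53; limma adjusted p = 0.874). It was negative in all 20 alternative settings, from -0.84 without 3xCR replicate 4 to -0.023 without 3xCR replicate 3, and was -0.13 without GPC6 replicate 1. Chrdl1 is X-linked, at chrX:143285674-143394262 (minus strand). The sum of 4 Y-linked genes (Ddx3y, Eif2s3y, Kdm5d and Uty), examined after the values of Chrdl1 were seen, was 1218 and 1675 normalized counts in GPC6 replicates 1 and 2 and at most 1.10 in the other 5 libraries. Of the 3 low tumors, GPC6 replicates 1 and 2 therefore carried Y-linked transcripts and 3xCR replicate 4 did not, and the part of sex in the values of Chrdl1 was not tested.

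Genes through which thrombospondins act held no call at the adjusted threshold. Of 17 thrombospondin receptors and binding partners, 6 had the higher and 11 the lower mean in GPC6 on the fitted log2 scale, which is the scale of all such counts below (median log2 fold change -0.36). Of these, 0 passed the adjusted test, and at an unadjusted p under 0.05 there were 1 higher and 0 lower, against 2.74% and 1.92% of all genes. That gene was Nlgn1, a postsynaptic adhesion gene, with a log2 fold change of 1.05 (SE 0.42; limma adjusted p = 0.730). It was 0.55 without 3xCR replicate 4 and 1.07 without GPC6 replicate 1, and passed the unadjusted threshold in neither. Cacna2d1, the neuronal thrombospondin receptor, had 125, 123 and 181 normalized counts across the 3xCR tumors, against 890, 43.5, 569 and 228 across the GPC6 tumors. GPC6 replicates 1 and 3 were the highest, as for Sparcl1, and GPC6 replicate 2 was the lowest of all (log2 fold change 0.92, SE 0.93, and 0.34 without GPC6 replicate 1 and 1.10 without 3xCR replicate 4). The receptors Cd47 (-0.50), Lrp1 (0.076) and Itgb1 (-0.53) had log2 fold changes near or below 0. All 14 neuron markers had the higher mean in GPC6, and the part of neuron content in the values of Nlgn1 and Cacna2d1 was not tested.

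Among the other thrombospondin family genes and the proteins that Thbs1 acts on, 9 of 10 listed genes were tested and 9 had the lower fitted log2 mean in GPC6, with a median log2 fold change of -0.68 and 0 at the adjusted threshold. Without 3xCR replicate 4 the median was -0.11, with 6 of 9 lower, and without GPC6 replicate 1 it was -0.33. At the unadjusted threshold 2 of 9 were lower, against 1.92% of all genes, namely Ltbp1, which holds TGF-beta in a latent complex (log2 fold change -1.47), and the matrix protease gene Mmp2 (-1.43). Mmp2 was also the only gene of this list whose groups did not overlap, where 3.52% of all genes were separated in that direction, with means of 643 ± 157 (SD, n = 3) in 3xCR and 239 ± 62.9 (SD, n = 4) in GPC6 (limma adjusted p = 0.730). Without 3xCR replicate 4 the log2 fold changes were -1.26 for Mmp2 and -0.85 for Ltbp1, the latter no longer past the unadjusted threshold, and without GPC6 replicate 1 they were -1.32 and -1.59. Tgfb1, the ligand activated by Thbs1, had a log2 fold change of -0.68, and Tgfb2, whose mean count was slightly higher in GPC6 (173 against 170), of -0.010. Of the 12 fibroblast markers, 10 also had the lower mean in GPC6, with 3xCR replicate 4 far above the rest, and their part in these values was not tested.

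The relatives and the partners of Sparc and Sparcl1 differed in the sign of their median. Of the 6 other SPARC family genes, 5 had the higher mean in GPC6 (median log2 fold change 0.92, and 0.52 without 3xCR replicate 4 or 0.49 without GPC6 replicate 1). Of the 6, 1 was higher at an unadjusted p under 0.05, against 2.74% of all genes, and 0 passed the adjusted test. That gene was Spock2, a brain proteoglycan gene, at 630 ± 452 (SD, n = 3) and 2539 ± 1931 (SD, n = 4) normalized counts (log2 fold change 1.92, limma adjusted p = 0.730), and it missed the unadjusted threshold without 3xCR replicate 4 (1.40) and without GPC6 replicate 1 (1.47). Fstl1, a secreted relative of SPARC, was the exception at -0.53. Its value was -0.49 without GPC6 replicate 1 but turned to 0.40 without 3xCR replicate 4, where Smoc1 (-0.22) was the lower gene instead. Spock2 is expressed by neurons, whose markers were also higher by mean in GPC6, and their part in its value was not tested. Of 14 partners of hevin and SPARC, 4 were higher and 10 lower (median -0.30), and Nlgn1, shared with the receptor list, was the only gene past the unadjusted threshold. The median of the partners turned to 0.027 without 3xCR replicate 4 and to 0.11 without GPC6 replicate 1. Col3a1, a fibrillar collagen gene, had 111, 601 and 19289 normalized counts across the 3xCR tumors, against 54.1, 1452, 159 and 102 across the GPC6 tumors, so that 3xCR replicate 4, the tumor with the most Sparc and the least Sparcl1, held far more than any other. The log2 fold change of Col3a1 was -2.52, and -0.45 without 3xCR replicate 4. Col3a1 is also among the fibroblast markers.

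Of 17 ligands, receptors and targets around Chrdl1, 6 had the higher and 11 the lower mean (median log2 fold change -0.20, and -0.51 without 3xCR replicate 4 or -0.080 without GPC6 replicate 1) and 0 passed the adjusted test. At the unadjusted threshold Gria2, the AMPA receptor subunit gene on which astrocytic Chrdl1 acts, was higher at 871 ± 642 (SD, n = 3) against 1985 ± 928 (SD, n = 4), with a log2 fold change of 1.40, and the BMP target Id3 was lower at 2560 ± 331 against 1447 ± 345 (-0.84), both with a limma adjusted p of 0.730. Against these 2 of 17 stand 2.74% of all genes higher and 1.92% lower. Gria2 missed the unadjusted threshold without 3xCR replicate 4 (0.75) and without GPC6 replicate 1 (1.12), whereas Id3 passed it without either (-0.80 and -0.78). Id3 and Id1 (-0.52), both targets of BMP signalling, were the only genes of this list whose groups did not overlap, where 3.52% of all genes were separated in that direction. The ligands Bmp4 and Bmp7 had log2 fold changes of -0.14 and -0.27. Gria2 is a neuronal gene, and the part of neuron content in its value was likewise not tested. Among 9 tested of 11 other BMP antagonists, 4 were higher and 5 lower (median -0.20), and 0 passed the adjusted test.

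Of 23 other secreted regulators of synapses, 7 had the higher and 16 the lower mean in GPC6 (median log2 fold change -0.17, and -0.33 without 3xCR replicate 4 or -0.22 without GPC6 replicate 1). Gpc6, the overexpressed gene, was higher at 2.85, and the complement genes C1qa (-1.07) and C1qc (-0.87), made by microglia, were lower, each past the unadjusted but not the adjusted threshold and each without overlap between groups. Over all genes, 2.74% were higher and 1.92% lower at the unadjusted threshold, and 2.80% and 3.52% were separated in these directions. Without 3xCR replicate 4 the log2 fold changes were 2.58 for Gpc6, -0.74 for C1qa and -0.64 for C1qc, none past the unadjusted threshold, and without GPC6 replicate 1 they were 3.17, -0.86 and -0.64, of which C1qc missed it. Gpc4, the other glypican by which astrocytes promote synapses, had a log2 fold change of -0.65. The 14 microglia and macrophage markers summed to 25576 to 45204 normalized counts among 3xCR tumors against 13540 to 24078 among GPC6 tumors. C1qa is itself 1 of these markers, with 10569 to 23328 among 3xCR tumors and 4563 to 9151 among GPC6 tumors. The sum is therefore not separate from C1qa. The part of microglia and macrophage content in the values of C1qa and C1qc was not tested.

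Genes with the most similar profile over the 7 libraries were sought for each member across all genes tested, by the same root mean square distance. The closest to Thbs1 were Nid1 (0.24), Nox4 (0.26) and Dusp2 (0.26), and the closest to Thbs2 were Adgra3 (0.37) and A4galt (0.40), beside the unnamed transcript 4930523C07Rik (0.37). For Thbs3 they were Lipt1 (0.32), 8430429K09Rik (0.34) and Ndufb9 (0.34), and for Thbs4 Car12 (0.29), Dnah6 (0.43) and Fhad1 (0.47), of which Dnah6 encodes an axonemal dynein chain. Sparc was nearest to Mesdc1 (0.11), Pigk (0.13) and Lzts2 (0.16). Sparcl1 was nearest to Dnal1 (0.092), Acsl6 (0.10) and Dlg3 (0.12), the last a synaptic scaffold gene, and Chrdl1 to Alms1-ps2 (0.21), Gfap (0.28), the astrocyte filament gene, and Acot1 (0.28). With 7 libraries such distances are descriptive.

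The members differed in which cell type marker lists lay nearest by this distance. The distance is not scaled for how much a profile varies. A list whose mean profile varies little can therefore rank first without a shared pattern. The distance from Sparcl1 to the mean profile of 15 astrocyte markers was 0.40, the smallest of any member to any marker list, followed by neuron markers at 0.84, and it was farthest from proliferation markers (1.98). Astrocyte markers summed to 87828, 69148 and 20325 normalized counts across the 3xCR tumors, against 108050, 35985, 68723 and 36347 across the GPC6 tumors. The tumor highest for Sparcl1, GPC6 replicate 1, was highest for 10 of these 15 genes, and the tumor lowest for Sparcl1, 3xCR replicate 4, was lowest for 11. Neuron markers summed to 5689 to 12971 in 3xCR and 8248 to 88120 in GPC6, and GPC6 replicates 1 and 3, the tumors with the most Sparcl1, were also the highest there. The part of astrocyte and neuron content in the values of Sparcl1 was not tested.

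Sparc lay closest to 11 mural cell markers (0.47) and 14 endothelial markers (0.51), and farthest from neuron markers (1.66). In centred log2 values, Sparc (0.74) and the mural (0.36) and endothelial (0.21) profiles were all above 0 in 3xCR replicate 4. In GPC6 replicate 1 Sparc was above 0 (0.58) and the mural (-0.27) and endothelial (-0.18) profiles were below it. The ranking alone therefore does not show that Sparc followed these lists. Thbs1 lay closest to microglia and macrophage markers (0.59), with endothelial (0.67) and mural (0.68) markers next, and Thbs2 closest to fibroblast (0.83) and endothelial (0.83) markers. In 3xCR replicate 4, the tumor highest for Sparc, Thbs1 and Thbs2, 8 of 12 fibroblast markers and 7 of 14 microglia and macrophage markers reached their highest value. No fibroblast marker was at 0 in any library. Endothelial markers summed to 2384 to 4456 normalized counts in 3xCR and 2839 to 4118 in GPC6, and mural markers to 1648 to 4043 and 1359 to 2040. Their part in the values of Thbs1, Thbs2 and Sparc was not tested.

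Thbs4 lay closest to astrocyte markers (1.00), far less closely than Sparcl1 did. Its high tumors, 3xCR replicate 3 and GPC6 replicate 1, were also high for choroid plexus markers, which summed to 219, 3790 and 3653 across the 3xCR tumors, against 12690, 370, 135 and 64.8 across the GPC6 tumors. 3xCR replicate 4 shared the high choroid plexus sum but not the high Thbs4. Folr1, Prlr, Kcne2 and Otx2 of that list were at 0 in at least 1 library. Thbs3 lay closest to the 3 tested of 5 platelet markers (0.82), of which Ppbp and Gp9 were not tested and were at 0 in at least 1 library, and Chrdl1 lay closest to endothelial (0.83) and mural (0.84) markers. These rankings alone do not show a shared pattern. Thbs3 and the platelet profile shared a sign in 3xCR replicate 3 (-0.60 and -0.65) but not in GPC6 replicate 2 (-1.07 and 0.56). Chrdl1 and the endothelial profile shared a sign in 3xCR replicate 3 (0.74 and 0.13) but not in 3xCR replicate 2 (0.67 and -0.72). The part of these cell types in Thbs3, Thbs4 and Chrdl1 was not tested.

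**Figure D4:**
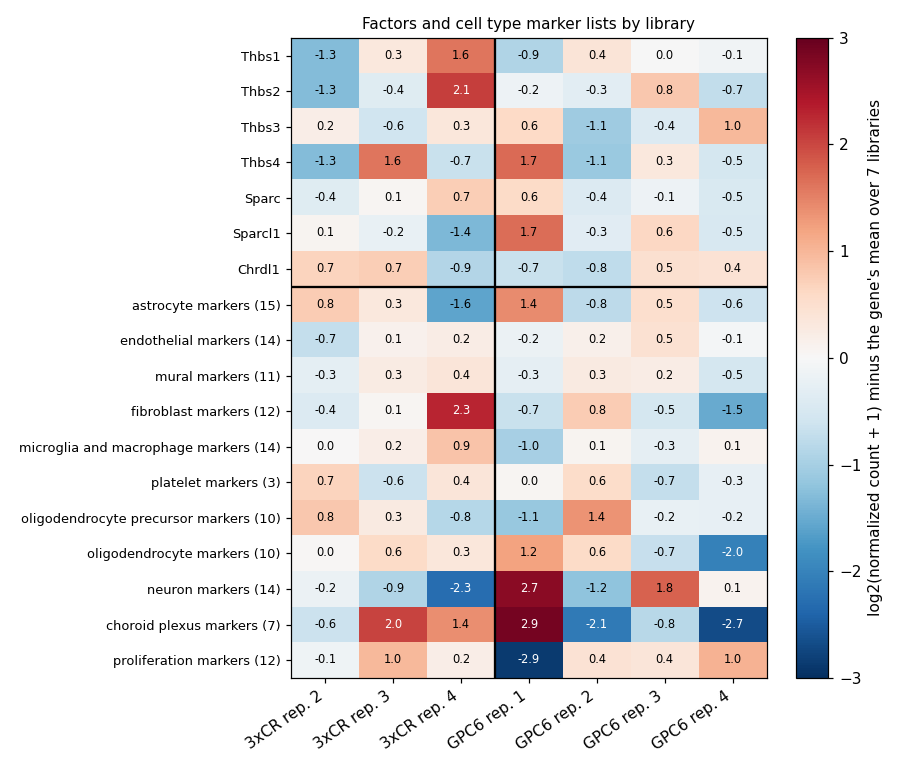
Log2(normalized count + 1) minus the mean over 7 libraries (colour) for the 7 factors, above the line, and for the mean of each marker list, below it, by library. In 3xCR replicate 4 the fibroblast score is 2.30 and the astrocyte score -1.58. In GPC6 replicate 1 the neuron score is 2.70 and the astrocyte score 1.41. Sparcl1 is likewise lowest in 3xCR replicate 4 (-1.36) and highest in GPC6 replicate 1 (1.68). Sparcl1 and the astrocyte row differ in sign in 3xCR replicate 3 (-0.21 and 0.32) and share it in the other tumors.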

How the data were processed

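Bulk RNA-Seq of endpoint tumors (3 of 3xCR, 4 of GPC6, 1 library per brain) was analysed. The authors aligned reads to mm10 with STAR 2.5.0a and normalized gene counts with DESeq2 1.20.0, and the deposited values are a normalized signal per gene, that is counts scaled by a DESeq2 size factor for each library, with no length correction. The strand setting of the counting is not stated. Of 19282 entries, 25 had names turned into dates (0.254% to 0.361% of reads) and were left out. Symbols were placed on GRCm38 (GENCODE), from which exon lengths, coding sequences and proteins were read.

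Whole reads were recovered from the steps between low values, and 100% of values lay within 0.01 of an integer. The libraries held 7197692 to 18879762 reads on genes, and a count of 0 allows up to 1.64 to 4.64 normalized counts, a limit that covers counting error only. The main test was limma 3.58.1 (R 4.3.3, two-sided, trended prior variance, all 7 libraries) on log2(normalized count + 1) over 14782 genes with a mean of at least 10, Benjamini-Hochberg adjusted. A fold change on that scale understates changes of low genes. edgeR 4.0.16 and DESeq2 1.42.0 on the recovered reads were alternatives, with other scalings, filters, pseudocounts, weights and left-out libraries. Nothing says that the tumors of a group share a litter or a culture, and each came from its own brain.

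The 7 members and the gene lists were chosen with earlier results of these data known. Named genes were the members, the 3 genes with the nearest profile to each, and in the lists genes past a threshold and some of the extremes. A few further receptors, ligands and collagen were named after their values were seen. The most abundant gene and the extremes in either direction were not named for every list. The result of 1 listed gene is not reported here. Proteins were aligned with Biopython 1.88.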

Additional observations from a re-analysis of the deposited data

How the results depend on the processing

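No member reached an adjusted p of 0.05 under any of the 20 alternatives, and Sparcl1 and Chrdl1 kept their direction in all 20. Leaving out 1 library at a time gave log2 fold changes of -1.13 to 0.32 for Thbs1, -0.95 to 0.73 for Thbs2, -0.28 to 0.40 for Thbs3, -0.38 to 1.06 for Thbs4 and -0.51 to 0.042 for Sparc, and 119 to 1401 genes at an unadjusted p under 0.05. Library weights turned Thbs2 to 0.87 and Thbs4 to -1.05, and limma voom (-0.022) and upper-quartile scaling (-0.021) turned Thbs3; the cause was not tested. Correlations of same-numbered libraries were -0.19, 0.12 and 0.30. They cannot decide whether replicate numbers pair the samples, since libraries with different numbers were not compared. A replicate block gave -0.15 for Thbs3 and -0.33 for Thbs4. At the adjusted threshold DESeq2 called 4 genes and library weights 1962. At the unadjusted threshold they called 1853 and 5105, with 1 member, Sparcl1, under library weights (limma adjusted p = 0.0985). Thbs1 and Thbs4 had the fewest reads of the 7, down to 22 and 17 in a library.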
